A study of Mus musculus with 2 samples.

Results

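The genes described here make cholesterol, sense it, and move or store it. They are 28 listed genes: 7 enzymes from acetyl-CoA to farnesyl diphosphate, 11 enzymes from squalene to cholesterol, 5 genes of the SREBP control system, and 5 genes of sterol uptake, export and esterification. All 28 were found among the 43346 mouse gene entries of both deposited gene tables, by Ensembl identifier and GENCODE symbol. The samples are a pair of total RNA libraries from whole intestine of mouse embryos at embryonic day 15.5, strain B6NCrl, which is labelled healthy and carries no treatment or engineered allele. Replicate 1 came from a pool of 78 embryos and replicate 2 from a pool of 62 embryos, both sexes mixed, so each value averages over many animals and all cell types of the dissected tissue. The libraries form 1 group without a control, and no differential test is possible. The deposited tables hold 34406872 and 40669822 estimated counts.

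Cholesterol is built from acetyl-CoA. Mevalonate enzymes make isoprenoid units and join them to farnesyl diphosphate, and the later enzymes join farnesyl units to squalene, close the rings and trim lanosterol to cholesterol. The transcription factors SREBP-1 and SREBP-2, encoded by Srebf1 and Srebf2, are held in the endoplasmic reticulum with their escort SCAP by the INSIG proteins when sterols are plentiful. When sterols are scarce they reach the Golgi, are cut, and turn on the synthesis genes through sterol regulatory elements, together with factors that bind CCAAT boxes and GC boxes. In the intestine, absorptive enterocytes take up sterols through NPC1L1, return them to the lumen through the ABCG5 and ABCG8 transporter, and esterify them for packing into lipoproteins.

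The labelled tissue was checked against marker lists before the sterol genes were read. All 6 gut epithelium markers were above 100 TPM in both libraries, where TPM is a transcript level corrected for length and for library depth. Epcam, an epithelial adhesion gene, was at 652.57 and 668.62 TPM in replicates 1 and 2. Genes of neighbouring organs were also present and unequal. The summed TPM of 6 pancreas acinar markers was 5720 in replicate 1 and 1998 in replicate 2, that of 6 liver markers was 710 and 508, and that of 6 adrenal and steroidogenic markers was 65.5 and 10.5. The 5 enterocyte markers summed to 5210 and 4301 TPM and were each lower in replicate 2. No marker was at 0 in either library. Sterol genes are active in liver and steroid-making cells too, and in bulk tissue fewer cells of a type and less RNA per cell cannot be told apart. The part of these other cells in the sterol gene levels was not tested.

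The synthesis pathway was expressed throughout. All 18 enzymes of synthesis were above 10 TPM in both libraries, and 7 of them were above 100 TPM. Of all 28 genes, 27 reached 1 TPM in each library, which is called detected here, 25 reached 10 TPM and 8 reached 100 TPM. Among 21474 protein-coding genes the shares past the same limits were 62.7%, 40.1% and 7.21%. The gene below 1 TPM was Abcg8. Group medians of mean TPM were 107.4 for the mevalonate enzymes, 70.6 for the squalene and sterol enzymes, 81.0 for the SREBP control genes and 10.1 for transport and esterification, beside 17.8 for all detected protein-coding genes. From the highest gene, Fdps, to the lowest, Abcg8, mean TPM differed 1113-fold.

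**Figure D1:**
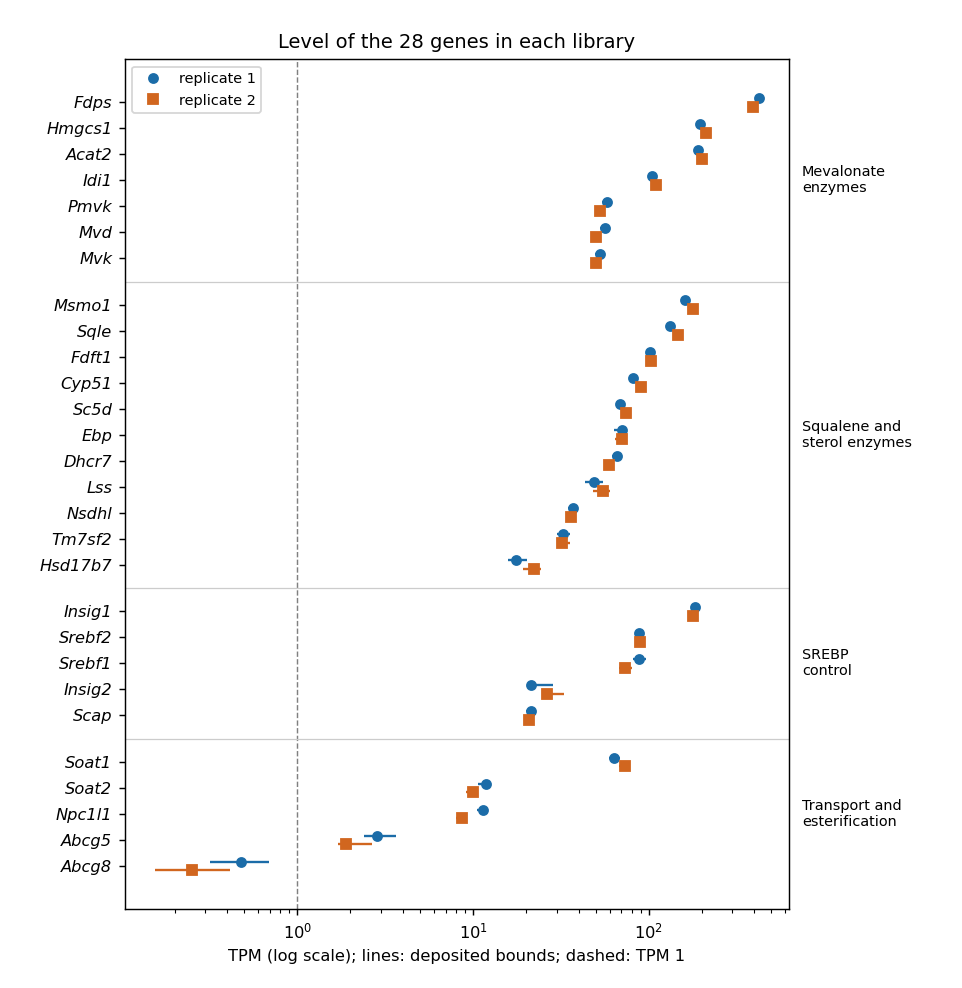
TPM of each of the 28 genes on a log axis, with circles for replicate 1, squares for replicate 2 and lines for the deposited credibility bounds. Some TPM values lie outside their own bounds. All synthesis enzymes lie to the right of 10 TPM, while Abcg5 and Abcg8 lie at the left end, Abcg8 below the dashed line at 1 TPM in both libraries.

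Among the mevalonate enzymes, Fdps was the highest of all 28 genes. It encodes farnesyl diphosphate synthase, whose product feeds sterols, dolichol and protein prenylation, and it was at 422.75 TPM in replicate 1 and 390.05 TPM in replicate 2 (406.4 ± 23.1 SD, n = 2). The gene lies at chr3:89093588-89101959 on the minus strand (GRCm38). Hmgcs1, the cytosolic HMG-CoA synthase, followed at 194.95 and 212.4 TPM (203.7 ± 12.3 SD). Acat2, the cytosolic acetoacetyl-CoA thiolase that opens the pathway, was at 190.46 and 200.63 TPM. Fdps stood apart from Hmgcs1 in both libraries, whereas the ranges of Hmgcs1 and Acat2 overlapped.

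The middle of the mevalonate branch was lower and even. Idi1, the isopentenyl diphosphate isomerase, was at 104.59 and 110.17 TPM. Pmvk, a kinase of mevalonate phosphate, was at 57.77 and 52.53 TPM, Mvd, the decarboxylase, at 56.55 and 50.32 TPM, and Mvk, mevalonate kinase, at 52.86 and 49.85 TPM. The last 3 could not be put in order beyond their spread between the libraries. Mean TPM of Pmvk, Mvd and Mvk thus lay between 51.4 and 55.2, under the 107.4 of Idi1 and the 406.4 of Fdps. The kinase and the synthase genes Pmvk and Fdps are both on chromosome 3, 352.6 kb apart, and no other members were as close except Abcg5 and Abcg8.

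The promoter of Hmgcs1 is shown because it was the only one of the examined windows with the longer form of a sterol regulatory element. The sequence is the RefSeq reference (GRCm38.p6, chr13:119690101-119690350, plus strand), the bases just before the gene's start. Capitals mark matches to TCACNCCAC and to CCAAT on either strand, where CCAAT on the opposite strand reads ATTGG. The element begins 137 bases before the start, with CCAAT matches on both sides of it.
Hmgcs1: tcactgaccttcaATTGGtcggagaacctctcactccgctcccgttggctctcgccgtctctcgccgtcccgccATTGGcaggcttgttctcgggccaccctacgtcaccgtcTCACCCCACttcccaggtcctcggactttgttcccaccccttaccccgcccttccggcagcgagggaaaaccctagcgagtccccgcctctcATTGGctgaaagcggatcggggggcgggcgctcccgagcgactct
The Mvk promoter (chr5:114444019-114444268, plus strand) is shown for its 5 CCAAT matches, more than in any other printed stretch. It has no match to TCACNCCA.
Mvk: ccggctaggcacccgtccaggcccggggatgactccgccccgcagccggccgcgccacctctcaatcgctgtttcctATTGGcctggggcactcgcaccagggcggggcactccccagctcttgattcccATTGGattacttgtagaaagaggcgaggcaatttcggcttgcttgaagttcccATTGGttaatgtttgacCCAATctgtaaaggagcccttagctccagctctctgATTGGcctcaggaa

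From squalene onward, levels varied more by enzyme than by library. Msmo1, the sterol methyl oxidase, was highest at 160.42 and 179.04 TPM (169.7 ± 13.2 SD, n = 2). Sqle, squalene epoxidase and a rate-limiting step, was at 132.4 and 146.26 TPM, and Fdft1, squalene synthase, at 101.42 and 103.01 TPM. These 3 kept apart from each other in both libraries. Fdps was 4.17-fold and 3.79-fold above Fdft1, the enzyme that draws on its product, in replicates 1 and 2.

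A middle set followed. Cyp51, lanosterol demethylase, was at 81.24 and 90.29 TPM, Sc5d, lathosterol desaturase, at 69.1 and 74.26 TPM, Ebp, a sterol isomerase, at 70.79 and 70.47 TPM, and Dhcr7, the reductase that yields cholesterol, at 65.93 and 59.07 TPM. Lss, lanosterol synthase, was at 48.58 and 54.9 TPM. The ranges of Sc5d and Ebp overlapped, and Dhcr7 lay below both in each library. The lowest enzymes were Nsdhl, a sterol dehydrogenase, at 37.19 and 35.99 TPM, Tm7sf2, a sterol reductase, at 32.4 and 32.11 TPM, and Hsd17b7, a keto-sterol reductase, at 17.67 and 22.28 TPM. Nsdhl and Ebp are both on the X chromosome.

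The control genes separated into abundant and scarce partners. Insig1, an endoplasmic reticulum anchor of SCAP and itself a known SREBP target, was at 182.79 and 177.67 TPM (180.2 ± 3.62 SD, n = 2), overlapping in range with Msmo1. Insig2, its paralog, was at 21.33 and 26.28 TPM, and Scap, the escort, at 21.25 and 20.88 TPM. Insig1 was thus 8.57-fold and 6.76-fold above Insig2, and 8.60-fold and 8.51-fold above Scap, in replicates 1 and 2. The Insig1 level lay above the other control genes in both libraries without overlap.

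Srebf2 and Srebf1 were compared at gene level and by coding transcripts. Srebf2, whose product chiefly serves cholesterol genes, was at 88.26 and 89.74 TPM. Srebf1, whose products serve fatty acid and sterol genes, was at 88.5 and 73.42 TPM. The log2 ratio of Srebf2 to Srebf1 was -0.0039 in replicate 1 and 0.29 in replicate 2, so their gene-level order differed between the libraries. Protein-coding transcripts of Srebf1 summed to 46.0 and 44.1 TPM, and Srebf2 was 1.92-fold and 2.03-fold above that sum in replicates 1 and 2. Srebf2 has 1 annotated transcript, which is coding, so this comparison leaves out TPM on the Srebf1 side only.

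Srebf1 has alternative first exons, and 3 transcripts that begin at different starts held 88.3% and 91.2% of its TPM in replicates 1 and 2. Its other transcripts, coding and non-coding, held the rest and begin elsewhere. The transcript that begins with the Srebp-1a exon (chr11:60220453-60220604, minus strand) was at 32.24 and 32.27 TPM, which is 36.4% and 44.0% of the gene. The transcript that begins with the Srebp-1c exon (chr11:60210336-60210465), 10.1 kb closer to the gene's end, was at 11.2 and 10.2 TPM, which is 12.6% and 13.9%. By their first exons the 1c protein starts with 24 fewer codons than the 1a protein, in the acidic activation domain that makes Srebp-1a the stronger activator. Of the 1a and 1c transcripts alone, 1a made up 74.3% and 76.0%. The annotated 1c transcript is also shorter, with 3177 bases and 1022 codons against 4299 bases and 1134 codons for 1a. How far this shapes the split was not tested.

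Another transcript of Srebf1 begins further upstream (chr11:60222523-60222581), has 2 exons and 367 bases, and is not annotated as coding. It was given 34.7 and 24.5 TPM, or 39.2% and 33.4% of the gene, from 223 and 183 estimated counts. In estimated counts it held 4.80% and 3.59% of the gene, and the 1a transcript 69.9% and 74.1%. Its 308-base second exon lies inside the second exon of the 1a and 1c transcripts. The gene-level difference between libraries, 88.5 against 73.42 TPM, was therefore uneven over its transcripts: the gene dropped by 15.1 TPM and this short transcript dropped by 10.2 TPM, while the 1a transcript was level.

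Reference sequence before both coding starts and before Srebf2 and Insig1 is printed because these genes set the response to sterols. Capitals mark CCAAT on either strand and TCACNCCA, the core of the sterol regulatory element. Srebf2 (chr15:82147019-82147180, plus strand) has the core and a CCAAT match. Insig1 (chr5:28071162-28071362, plus strand) has a CCAAT match only. Before the Srebp-1c exon (chr11:60210472-60210721, minus strand) there is a CCAAT match, and before the Srebp-1a exon (chr11:60220628-60220877, minus strand) none of these letters was found. No match says only that the letters are not in the stretch shown.
Srebf2: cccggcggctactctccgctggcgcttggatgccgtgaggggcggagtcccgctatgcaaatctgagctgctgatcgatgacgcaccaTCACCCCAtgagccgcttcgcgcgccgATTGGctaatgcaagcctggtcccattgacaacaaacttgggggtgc
Insig1: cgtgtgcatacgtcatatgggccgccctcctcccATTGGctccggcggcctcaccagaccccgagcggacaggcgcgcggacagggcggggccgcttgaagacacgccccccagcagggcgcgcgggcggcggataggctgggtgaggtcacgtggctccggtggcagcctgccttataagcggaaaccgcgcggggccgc
Srebf1 1c: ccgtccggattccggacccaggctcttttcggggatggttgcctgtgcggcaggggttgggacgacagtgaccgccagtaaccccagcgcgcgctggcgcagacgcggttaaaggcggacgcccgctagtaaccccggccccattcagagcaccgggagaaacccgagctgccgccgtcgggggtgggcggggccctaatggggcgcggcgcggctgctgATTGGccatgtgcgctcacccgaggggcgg
Srebf1 1a: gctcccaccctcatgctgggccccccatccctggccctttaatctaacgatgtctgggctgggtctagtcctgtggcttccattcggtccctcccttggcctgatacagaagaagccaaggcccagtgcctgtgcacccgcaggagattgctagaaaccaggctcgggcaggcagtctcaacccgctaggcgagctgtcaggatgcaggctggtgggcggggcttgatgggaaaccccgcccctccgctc

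CCAAT and the GC box were each found for most genes searched. RefSeq windows of 300 bases, from 250 before to 50 after a start, were matched for 24 of the 28 genes, 33 windows in all. Fdft1, Fdps, Sqle and Soat2 had none. CCAAT on either strand was present for 22 of 24 genes (91.7%), beside 41.1% of 27025 genes and 43.0% of the 10539 detected protein-coding genes with a window. Counted by window it was 23 of 33 (69.7%), beside 37.4% of all 32851 windows. The GC box GGGCGG was present for 20 of 24 genes (83.3%), beside 38.2% of all genes and 67.9% of the detected protein-coding genes, and in 24 of 33 windows (72.7%), beside 35.7% of all windows. Acat2 and Scap lacked CCAAT, and 11 genes had 2 or more CCAAT matches in a window.

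The other letters were rarer. TCACNCCAC was in 1 of 24 genes, Hmgcs1, beside 1.44% of all genes. The shorter TCACNCCA, which is contained in the longer form, was in 3 genes, Hmgcs1, Msmo1 and Srebf2, beside 4.97%. The E-box CACGTG, which reads the same on both strands, was in 5 of 24 (20.8%), beside 8.09% of all genes and 11.3% of detected protein-coding genes. The CCAAT, GC box and E-box letters were added to the search after the sequences had been seen. No binding was measured in these samples.

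**Figure D2:**
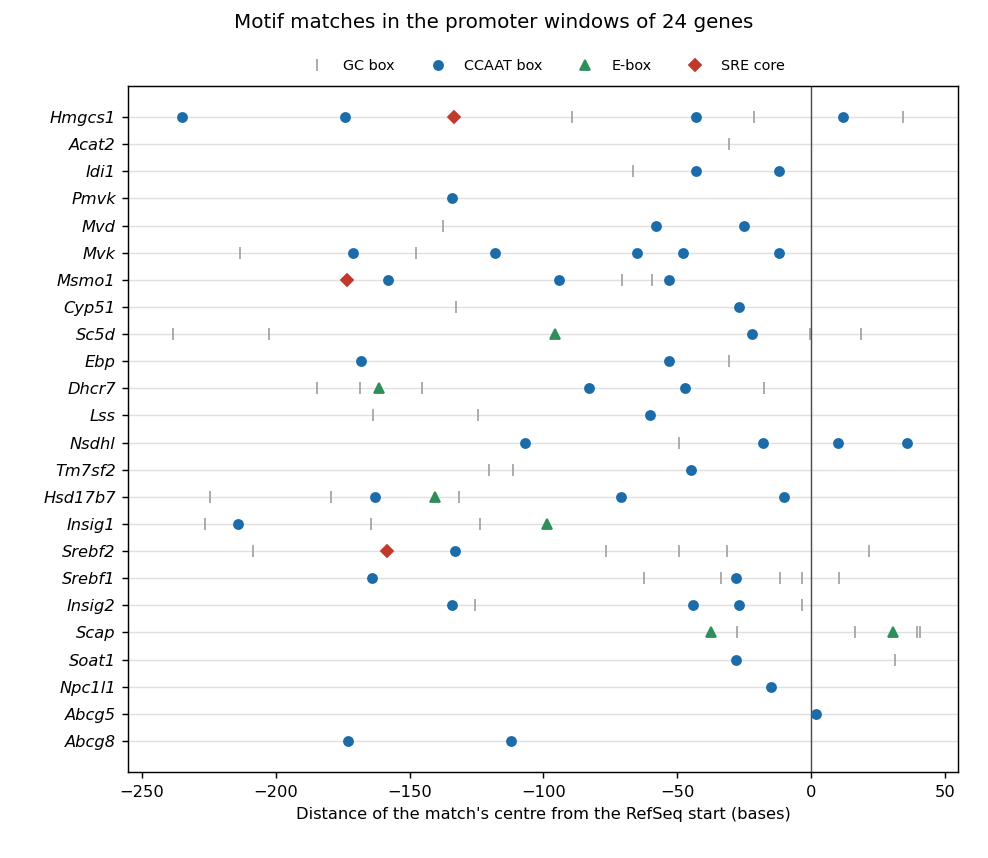
Positions of motif matches in the promoter windows of 24 genes, as distance in bases from the RefSeq start at 0, with all windows of a gene drawn on one line. CCAAT matches (circles) appear on the lines of 22 genes and SRE core matches (diamonds) on those of 3.

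Transport and esterification genes were lower, except for Soat1. Soat1, the broadly expressed sterol acyltransferase, was at 63.85 and 72.98 TPM. Soat2, the acyltransferase known from intestine and liver, was at 11.85 and 10.05 TPM, so Soat1 was 5.39-fold and 7.26-fold higher in replicates 1 and 2. Npc1l1, the uptake receptor, was at 11.47 and 8.63 TPM. Soat2 and Npc1l1 overlapped in range.

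The export genes were the lowest of all. Abcg5 was at 2.84 and 1.90 TPM, from 125 and 111 estimated counts. Abcg8, which encodes the other part of the same transporter, was at 0.48 and 0.25 TPM, from 28 and 18 estimated counts. Abcg5 was 6.49-fold above Abcg8 in mean TPM, and its deposited bounds (2.40 to 3.65 in replicate 1, 1.70 to 2.66 in replicate 2) stayed above those of Abcg8 (0.316 to 0.689 and 0.155 to 0.412). With 28 and 18 counts, a difference between libraries in Abcg8 was not resolved, since its bounds overlapped.

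Abcg5 and Abcg8 lie head to head on chromosome 17. The Abcg5 gene (chr17:84658234-84683011, minus strand) starts 109 bases from the start of the transcript Abcg8-201, although another annotated Abcg8 transcript reaches into Abcg5. The stretch between the starts (chr17:84683012-84683120, written along the minus strand) is printed because both genes share it. It has no match to the CCAAT box, the SRE core or the GC box. A CCAAT match begins at the first base of Abcg5, just outside the printed stretch. The same site also lies in an Abcg8 window, so it is counted for both genes. Abcg8 has another CCAAT match in its windows, whereas Abcg5 has none.
Abcg5 to Abcg8: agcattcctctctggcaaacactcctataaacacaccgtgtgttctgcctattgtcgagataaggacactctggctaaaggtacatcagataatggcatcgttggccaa

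Between the libraries no large difference was seen. None of the 27 detected genes passed a 1.5-fold limit in log2((TPM + 1) of replicate 2 / (TPM + 1) of replicate 1), beside 2.23% of all 14986 detected genes. A limit of 1.2-fold, added after the values were seen, was passed by 5, beside 14.0% of detected genes. Of the 27, 13 were higher in replicate 2 and 14 in replicate 1, beside 55.2% of detected genes higher in replicate 2. The median log2 ratio was -0.0064 for the sterol genes and 0.02 for all detected genes. Of all 378 pairs of members, 366 were in the same order in both libraries.

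The deposited credibility bounds cover quantification and counting error but not variation between embryos. They were apart for 11 of the 28 genes, all 11 of them detected, beside 21.3% of detected genes. They were higher in replicate 2 for Acat2, Hmgcs1, Idi1, Sqle, Cyp51, Msmo1 and Sc5d, and lower for Mvd, Fdps, Srebf1 and Npc1l1. Within the 11 squalene and sterol enzymes, 4 had bounds apart and all 4 were higher in replicate 2. Of all 3191 detected genes with bounds apart, 65.8% were higher in replicate 2, beside 7 of 11 sterol genes. The differences were small: Cyp51 was 1.11-fold higher in replicate 2, Msmo1 1.12-fold and Sqle 1.10-fold. The median of mean TPM was 65.5 for the 28 genes and 15.5 for all detected genes. How far this level sets the share with bounds apart was not tested.

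**Figure D3:**
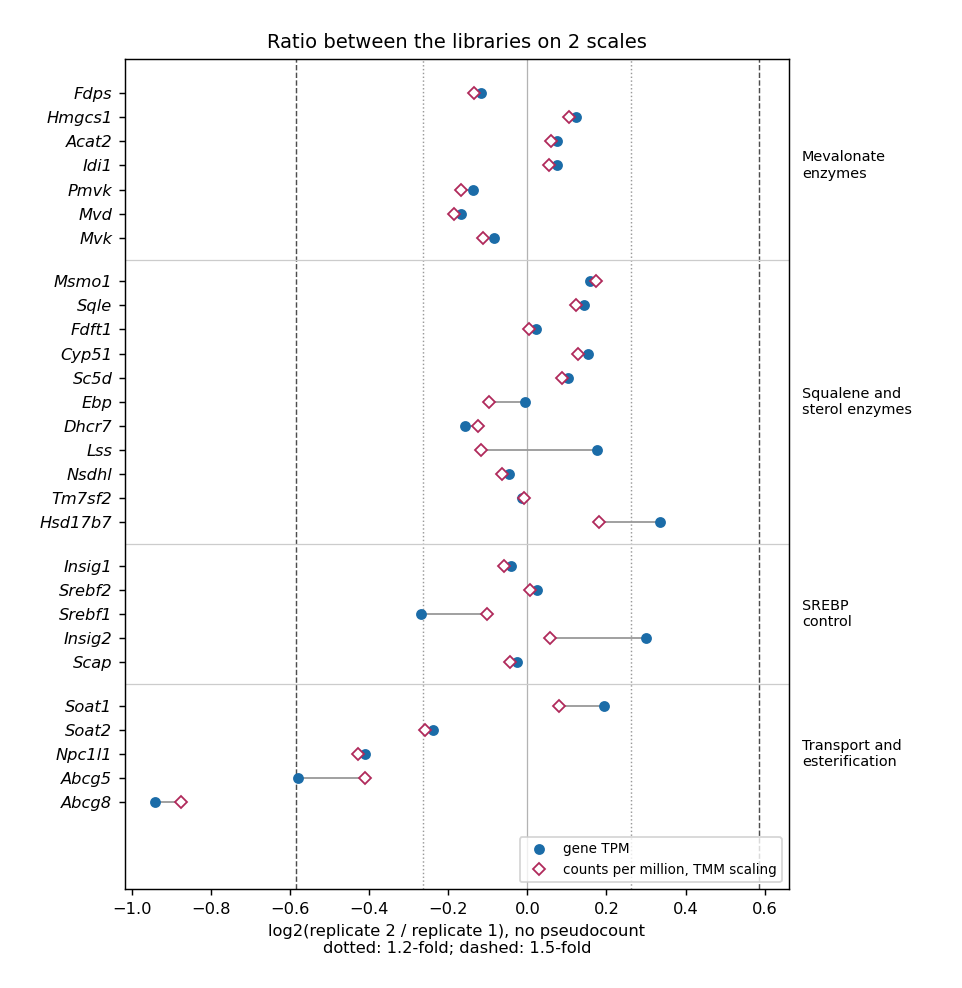
Log2 ratio of replicate 2 to replicate 1 for each gene, without a pseudocount, from gene TPM (circles) and from TMM-scaled counts (CPM) (open diamonds). Lss, Srebf1, Insig2 and Hsd17b7 move towards or across 0 on the count scale, while Npc1l1 keeps its place.

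The count scale was set beside TPM for the 5 genes past 1.2-fold. Npc1l1, with 1 annotated transcript, went from 35.6 to 26.4 CPM, counts scaled for depth with TMM, a log2 ratio of -0.43 beside -0.41 for TPM. Abcg5 went from 3.70 to 2.79 CPM. Its TPM difference lay on Abcg5-202, at 1.2 TPM in replicate 1 and listed at 0 in replicate 2, while the leading Abcg5-201 was at 1.45 and 1.70 TPM. Npc1l1 and Abcg5 were the 2 detected genes past 1.2-fold on that scale. Srebf1, Insig2 and Hsd17b7 had log2 ratios of -0.10, 0.06 and 0.18 in counts, against -0.27, 0.30 and 0.33 in TPM.

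In Srebf1, Insig2 and Hsd17b7 a short transcript carried much of the TPM difference; the transcripts named here were picked after their values were seen. Insig2-214, of 674 bases, went from 3.12 to 6.03 TPM while the leading Insig2 transcript was at 11.4 and 11.3 TPM. Hsd17b7-203, of 593 bases and not annotated as coding, was listed at 0 TPM in replicate 1 and at 4.01 TPM in replicate 2. Lss was the 1 gene whose direction differed between scales, at 0.18 in TPM and -0.12 in counts. Its leading transcript went from 30.9 to 28.6 TPM, and Lss-202, of 352 bases, from 2.16 to 12.9 TPM on 13.1 and 91.2 estimated counts. A short effective length turns few reads into a large TPM.

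Of the 5 transport and esterification genes, 4 were lower in replicate 2: Npc1l1, Abcg5, Abcg8 and Soat2. Their fold values of replicate 2 over replicate 1 were 0.752, 0.669, 0.521 and 0.848. Only Npc1l1 among them had bounds apart, 10.6 to 11.9 TPM in replicate 1 and 7.96 to 8.98 TPM in replicate 2. Enterocyte markers were lower as well, 5 of 5 with a log2 ratio of their sums of -0.28, and Apoa4, an intestinal lipoprotein gene, was at 695.09 and 482.08 TPM. Liver markers were lower in 6 of 6, with a log2 ratio of sums of -0.48, and gut epithelium markers in 5 of 6, with -0.06. Whether these markers' cells account for the lower Npc1l1 was not tested.

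The synthesis genes were level by comparison, as were smooth muscle and red cell markers, with log2 ratios of sums of 0.02 and -0.01. The summed TPM of the 18 synthesis enzymes was 1897 in replicate 1 and 1934 in replicate 2, a log2 ratio of 0.03. Pancreas acinar markers had a log2 ratio of sums of -1.52 and steroidogenic markers of -2.64, the latter including Hsd3b1, a steroid dehydrogenase, at 12.9 and 1.10 TPM. Soat1 was 1.14-fold higher in replicate 2 in TPM, with overlapping bounds. Its log2 ratio was 0.19 in TPM and 0.08 in TMM-scaled counts. Its short transcript Soat1-206, of 366 bases, went from 8.26 to 13.65 TPM.

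**Figure D4:**
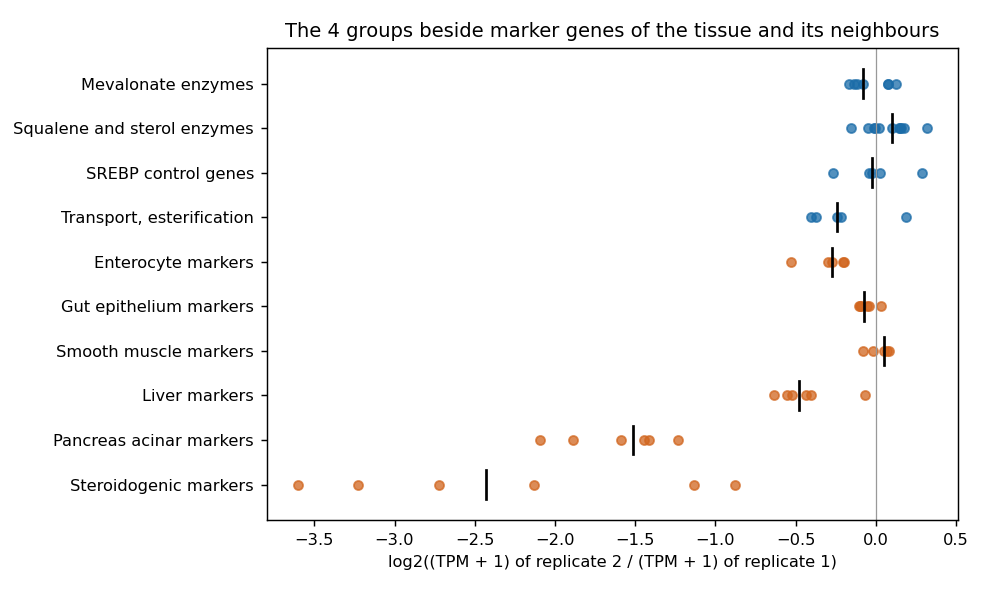
Log2 ratio of replicate 2 to replicate 1, with a pseudocount of 1 TPM, for each gene (points) of the 4 sterol groups and of 6 marker lists, with the median of each row as a black bar. The synthesis and control groups lie around 0, the enterocyte and liver rows lie to the left, and the pancreas and steroidogenic rows lie further left.

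Transcript structure divided the genes further. Of the 27 detected genes, 8 have 1 annotated transcript in the tables, and 16 had a leading transcript with at least 90% of the gene's TPM in the mean of the libraries. By the mean of the libraries, the leading transcript was annotated as protein-coding in 27 of 27. It held under 60% in 6 genes: Lss, Hsd17b7, Ebp, Srebf1, Insig2 and Soat1. In Ebp and Srebf1 the leading transcript differed between the libraries. In replicate 1 Srebf1 was led by its 367-base transcript not annotated as coding, at 39.2% beside 36.4% for the 1a transcript.

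Transcripts not annotated as coding held over 10% of TPM in 6 genes. Their mean share was 44.0% in Srebf1, 39.5% in Lss, 39.4% in Hsd17b7, 38.6% in Msmo1, 25.8% in Ebp and 13.8% in Tm7sf2. In Lss, retained introns took 27.6% and 23.5% in replicates 1 and 2, and in Ebp 24.9% and 26.6%. Msmo1 had 3% and 2.41% on retained introns, so most of its non-coding share was of other kinds. Soat1 was led by a coding transcript of 2925 bases with 53.4% and 52.9%, and a coding transcript of 8371 bases held 20.2% and 17.9%. The enzymes Fdps, Hmgcs1, Mvd and Fdft1, and the control genes Srebf2, Scap and Insig1, have 1 transcript each and show no such division.

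**Figure D5:**
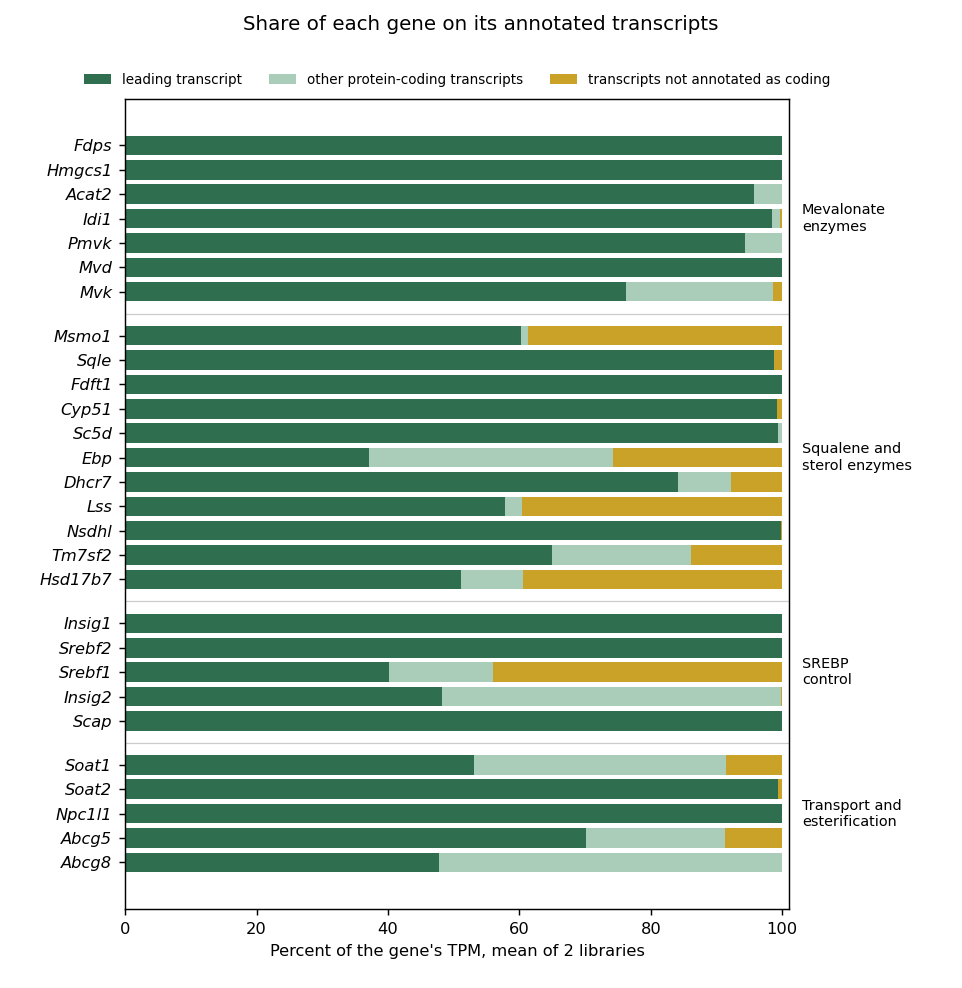
Mean share of each gene's TPM on its leading transcript, other protein-coding transcripts and transcripts not annotated as coding, over the 2 libraries. Most mevalonate enzymes are a single dark bar, while Srebf1, Lss, Hsd17b7, Msmo1 and Ebp have wide light-brown segments.

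Some values share reads with other genes. Of the 28 genes, 12 overlap an annotated gene on the opposite strand, and whether the counting used strand is not stated in the labels or readme, so reads of such partners may not be separable. Fdft1 overlaps Ctsb, a lysosomal protease gene at 224.35 and 210.5 TPM, and 31.9% of the 31-base words of its transcripts also occur in transcripts of other genes. Acat2 shares 43.7% of its words with Acat3, its neighbouring copy, which was at 0.74 and 1.36 TPM. Idi1 and Fdps share 27.1% and 27.9% of their words with other genes. In all, 7 genes shared over 10%, also Tm7sf2 at 13.3%, Hmgcs1 at 13.1% and Scap at 11.3%. Most of the Fdps and Hmgcs1 shares, 24.6% and 10.9% of words, are with Gm43738 and Gm48342. Those have no entry in the deposited gene set, so the counting could not split reads with them. The levels of these 7 genes are uncertain to the extent that the authors' counting split reads with genes that do have an entry.

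The surrounding pathway was also present. Of 47 other genes of acetyl-CoA supply, isoprenoid use, SREBP processing, sterol movement, fatty acid synthesis and oxysterol sensing, 46 were detected, 38 reached 10 TPM and none passed 1.5-fold. The exception was Idi2, a paralog of Idi1, listed at 0 in both libraries. Their median of mean TPM was 33.1, beside 65.5 for the 28 genes.

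Acetyl-CoA supply and fatty acid synthesis held high genes. Acly, which makes cytosolic acetyl-CoA, was at 121 and 127.89 TPM, and Acss2, which makes it from acetate, at 16.74 and 17.36 TPM. Among genes known to answer to SREBP-1, Scd2, a desaturase, was at 358.72 and 349.2 TPM and Fads2, another desaturase, at 194.22 and 188.55 TPM. Acaca, which makes malonyl-CoA, was at 10.32 and 12.68 TPM, and Scd1 at 4.32 TPM in both.

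Genes that process SREBP and use isoprenoids were at middle levels. Mbtps1, the Golgi protease of the first cut, was at 65.36 and 68.91 TPM, and Ufd1, which takes part in protein turnover, at 52.58 and 58.09 TPM. Rnf139, an endoplasmic reticulum ubiquitin ligase, was at 14.22 and 14.96 TPM, and Fbxw7, which directs nuclear SREBP to breakdown, at 7.95 and 8.74 TPM. All 7 genes of this list were a little higher in replicate 2, beside 55.2% of detected genes, with a median log2 ratio of 0.12. Bounds were apart for 1 of the 7, beside 21.3% of detected genes. Fnta, a subunit of protein prenyltransferases, was at 74.79 and 69.14 TPM. Dhdds and Nus1, which together build dolichol chains, were at 33.09 and 34.25 TPM and at 13.36 and 13.14 TPM.

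Of 9 genes listed under sterol movement inside cells, 4 reached 100 TPM. This list is broad, and not all of its genes are sterol carriers. Scp2, a sterol carrier protein gene, was at 254.59 and 262.94 TPM and Pgrmc1, a membrane heme protein gene, at 168.72 and 180.06 TPM. Lipa, lysosomal acid lipase, was at 24.8 and 28.24 TPM, and Osbp, an oxysterol-binding protein gene, at 3.56 and 3.45 TPM. Nr1h2, the oxysterol receptor LXR-beta, was at 57.42 and 55.79 TPM. Of the 7 genes of oxysterol sensing and efflux, 2 reached 10 TPM. Cyp39a1, an oxysterol hydroxylase, was at 11.06 and 12.69 TPM, Cyp27a1, a sterol hydroxylase, at 5.21 and 5.04 TPM, and Ch25h, which makes an oxysterol signal, at 3.43 and 2.73 TPM.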

How the data were processed

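Whole intestine at embryonic day 15.5 was measured by total RNA-seq in 2 libraries of 1 group. Per the labels' protocols, each library used 10 ng of RNA over 200 nucleotides in size, purified with an Ambion mirVana method, with ERCC spike-ins. The deposited readme names mm10 as the genome and GENCODE M4 as the gene set. Aligner, quantifier and strand setting were not given in the sources used here. As the file headers show, the authors deposited expected counts per gene and transcript, estimated so that shared reads are split. Per the file headers, the authors also gave TPM, scaled over all entries with spike-ins, and FPKM. Credibility bounds for TPM, deposited by the authors without a stated level, were treated as a score. They do not always contain the deposited TPM. Fdps in replicate 1 was at 422.75 TPM, with bounds of 405.2 to 420.3 and a posterior mean TPM of 412.75. The percent of a gene on each transcript is also deposited by the authors. Libraries were not pooled further by the authors.

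Symbols, transcript types and exons came from GENCODE M21 on GRCm38, by identifier without version. Spike-ins took 2.16% and 1.76% of counts and, with 26248 entries named by a number alone and phiX, stayed out of gene comparisons. Detection meant 1 TPM or more in each library, and ratios used a pseudocount of 1, a scale that understates changes of low genes. With 1 group there is no test and no p-value. Expected counts were rounded and scaled with edgeR 4.0.16 (TMM) and DESeq2 1.42.0 (size factors) in R 4.3.3, for scaling only. The libraries come from separate pools per the labels and were kept as separate samples. Ratios and interval overlap were tested on simulated data. Promoter windows came from RefSeq (GRCm38.p6), and the share of 31-base words in other genes from M21 transcripts on both strands. Srebf1 transcripts were to be classed by first exon with the upstream exon as Srebp-1a. Another start further upstream was found, and Srebp-1a was taken as the upstream of the coding starts. The genes and lists were chosen with earlier results of these data known. All 28 genes may be named, along with the 2 highest and 2 lowest genes of each further pathway list. Of those, 2 are not reported here. For genes whose leading transcript held under 60%, transcripts with at least 10% in both libraries may be named. Marker genes were named from the fixed marker lists. Labels call the samples biological replicates from separate pools, and their spread covers pooling and library preparation together.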

Additional observations from a re-analysis of the deposited data

How the results depend on the processing

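Across 76 alternatives for 14 results, 54 left the value in place. The median log2 ratio of the sterol genes was -0.043 with TMM scaling, -0.042 with DESeq2 size factors and -0.027 with FPKM. It changed sign to 0.00043 with posterior mean TPM and to 0.24 with TPM set to the spike-ins, which moved the median of all detected genes to 0.25 and put 24 of 27 sterol genes higher in replicate 2, beside 13 in TPM. The count past 1.5-fold stayed at 0 on every scale and at a 2-fold limit, and was 5 at 1.2-fold. In FPKM the group medians were 74.2, 48.8, 56.0 and 6.96 in the order mevalonate, squalene and sterol, control, and transport. The squalene and sterol median was 69.6 with posterior mean TPM and 69.1 to 70.5 with either library left out. With either library left out, the log2 ratio of Srebf2 to Srebf1 ran from -0.0039 to 0.29, and it was 0.98 over protein-coding Srebf1 transcripts alone. A pseudocount of 1 brought that of Abcg8 to Abcg5 to -1.30. The Srebp-1a share of Srebf1 was 40.2% of TPM, 71.6% among coding transcripts, 72.0% in estimated counts and 75.1% of 1a and 1c together, since a 367-base transcript weighs less in each. The promoter motif count was 1 for TCACNCCAC, 3 for TCACNCCA, 22 for CCAAT, 20 for GGGCGG and 5 for CACGTG. The limits of 1.2-fold, the last 3 motifs, the coding Srebf1 ratio, and the Srebf1 shares of counts and of 1a and 1c were chosen after seeing the data. No paired analysis was possible because there is only 1 group. With 2 libraries, an SD rests on 1 difference, and low counts limit the precision for Abcg8.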

Other observations

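In the Mvk promoter window, 4 of the CCAAT matches lie on the opposite strand and are spaced by 53 bases each time. The stretches that begin at neighbouring matches agree at 17, 14 and 17 of 53 bases. This spacing was noticed after the sequence was seen and was not compared with other promoters.

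The processed pseudogene Gm13502, which shares 18.4% of the 31-base words of Idi1, was at 4.12 TPM in replicate 1 and 16.23 TPM in replicate 2, while Idi1 was at 104.59 and 110.17 TPM. Whether reads moved between the pair was not tested.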
